A study of Mus musculus with 20 samples.

Results

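The ATP-binding cassette (ABC) transporters of mouse kidney are described here as the 40 genes whose symbols run from Abca to Abcg followed by a number, out of 19940 genes in the deposited table. They comprise 12 genes of subfamily A, 8 of subfamily B, 9 of subfamily C, 4 of subfamily D, 1 of subfamily E, 3 of subfamily F and 3 of subfamily G. The rule uses symbols alone, so the ABC proteins Tap1, Tap2 and Cftr fall outside it, and none of these 3 passed the test in any comparison. The study holds 20 kidney RNA libraries of male mice, taken here as 1 mouse each. There were 4 groups of 5: Tert-/- mice of generation 3 (G3) at 47 weeks, Tert+/+ mice at 47 weeks, G3 Tert-/- mice at 7 weeks and Tert+/+ mice at 7 weeks. The protein made from Tert is the catalytic subunit of telomerase, and telomeres shorten over generations bred without it. The mice were kept free of specific pathogens, no further treatment is named for these groups, and no source used here gives the strain. Comparisons were made between the genotypes at 47 and at 7 weeks, between the ages within a genotype, and of the genotype effects of the 2 ages with each other.

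An ABC transporter binds ATP at paired nucleotide-binding domains and uses its hydrolysis to move a substrate across a membrane. Proximal tubule cells take organic anions and cations from blood through basolateral carriers and export drugs, conjugates, urate and cyclic nucleotides into the tubular fluid through apical pumps of subfamilies B, C and G. Subfamily A moves lipids, subfamily D serves peroxisomes and lysosomes, and subfamilies E and F have lost the membrane part and act on ribosomes.

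Abcc4 and Abcb1a, which encode drug efflux pumps, were higher at 47 weeks than at 7 weeks in both genotypes. The Abcc4 calls held under each alternative run, while the Abcb1a call in Tert+/+ kidneys was lost on leaving out certain single libraries. Abcb1b, the second P-glycoprotein gene of the mouse, was higher at 47 weeks in G3 Tert-/- kidneys, and in the same kidneys the lipid transporter gene Abca3 and the peroxisomal transporter gene Abcd3 were lower. In Tert+/+ kidneys these genes lay on the same sides without passing, at log2 fold changes of 1.22, -0.25 and -0.30. Abcb1b passed there as well when the 7-week library that stood above the rest of its group was left out. The age effects of Abcb1b, Abca3 and Abcd3 did not differ between genotypes at the threshold. The Abcd3 call was lost on leaving out any single library compared, and the Abca3 call on leaving out its highest 7-week library. The 3 most abundant ABC genes, Abcc2, Abcg2 and Abcd3, held 56.6% to 63.0% of all ABC counts in a library (median 59.5%). In limma no ABC gene passed between G3 Tert-/- and Tert+/+ kidneys at either age, nor in edgeR, while DESeq2 called Abcc4 at 47 weeks.

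The bases before the start site are shown for the genes that passed with age in G3 Tert-/- kidneys, since these are the members the results turn on. The RefSeq promoter table of build GRCm38.p6 had an entry for 29 of the 40 members. Each line gives 250 bases 5′ to 3′ on the gene's strand, and capitals mark any match on either strand to GGGCGG (GC box), CCAAT, TGACNNNGC (core of the antioxidant response element) or CACGTG (E-box). The intervals are chr14:118706220-118706469 on the minus strand for Abcc4, chr5:8797897-8798146 on the plus strand for Abcb1b, chr17:24351773-24352022 on the plus strand for Abca3 and chr3:121815303-121815552 on the minus strand for Abcd3.
Abcc4: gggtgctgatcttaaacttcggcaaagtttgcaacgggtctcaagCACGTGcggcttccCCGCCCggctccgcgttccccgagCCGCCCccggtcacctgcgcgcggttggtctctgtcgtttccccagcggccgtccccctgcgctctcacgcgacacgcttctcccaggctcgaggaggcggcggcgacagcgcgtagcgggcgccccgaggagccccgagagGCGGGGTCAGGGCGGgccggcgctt
Abcb1b: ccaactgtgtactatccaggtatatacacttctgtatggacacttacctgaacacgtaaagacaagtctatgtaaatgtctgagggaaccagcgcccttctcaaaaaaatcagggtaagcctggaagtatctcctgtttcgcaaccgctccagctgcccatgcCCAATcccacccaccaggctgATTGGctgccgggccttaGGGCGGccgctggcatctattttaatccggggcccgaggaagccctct
Abca3: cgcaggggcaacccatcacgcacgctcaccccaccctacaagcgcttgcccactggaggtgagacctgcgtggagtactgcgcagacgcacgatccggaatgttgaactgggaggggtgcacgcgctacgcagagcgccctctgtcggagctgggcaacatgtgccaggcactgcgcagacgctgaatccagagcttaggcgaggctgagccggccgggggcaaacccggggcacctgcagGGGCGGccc
Abcd3: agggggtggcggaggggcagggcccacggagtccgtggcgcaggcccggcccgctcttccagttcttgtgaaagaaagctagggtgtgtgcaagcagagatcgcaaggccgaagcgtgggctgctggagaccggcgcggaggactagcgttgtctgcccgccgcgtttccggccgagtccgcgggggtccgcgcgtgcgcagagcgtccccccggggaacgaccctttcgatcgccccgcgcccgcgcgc
The Abcc4 window held 3 GC boxes, 1 antioxidant core, which stands directly before a GC box, and 1 E-box. The Abcb1b window held 1 GC box and 2 CCAAT boxes in opposite orientations, the Abca3 window held 1 GC box, and the Abcd3 window held none of these motifs. TATAAA was in none of the 4 windows. Abcb1a is not shown because its RefSeq start lies 92986 bases from the start in the GENCODE annotation. Among 32536 distinct promoters of the same length, 33.0% held a GC box, 33.8% a CCAAT box, 10.2% the antioxidant core, 6.04% the E-box and 12.3% TATAAA. Among the 29 members the shares were 55.2%, 27.6%, 10.3%, 13.8% and 10.3% for these motifs in the same order. The 29 include Abcb1a with its distant RefSeq window. Each member gave 1 window, the nearest to its GENCODE start, while the wider set counts every distinct promoter. These are matches of letters and not sites of binding.

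Values are normalized counts, which are reads per gene divided by a size factor of the library, and ± is the SD over 5 mice. The libraries read a site near the 3′ end of each polyadenylated transcript, so counts are set side by side across genes without division by length. The 19 libraries whose whole reads could be recovered held 7161690 to 9757594 reads, and 18628 to 19137 genes were above 0 in a library. A value of 0 allows up to 3 reads, which is 2.49 to 3.38 normalized counts and covers counting error only. Tert itself had 5.11 to 8.31 normalized counts in G3 Tert-/- and 7.25 to 16.9 in Tert+/+ kidneys at 47 weeks, and 0.979 to 5.65 in G3 Tert-/- and 4.21 to 15.7 in Tert+/+ kidneys at 7 weeks. A tag at the 3′ end need not fall in the deleted exons, so these counts do not check the genotype labels. On the first principal component of all genes tested (22.0% of variance), Tert+/+ 47-week replicate 4 lay at 56.6 and Tert+/+ 7-week replicate 1 at 67.5. The other 18 libraries lay at -39.4 to 21.0. Tert+/+ 47-week replicate 4 also held 462 normalized counts of Alb, a hepatocyte gene, against at most 89.8 in any other library. Results are given without both libraries where these change a call. In kidney tissue, fewer cells of a type and less RNA per cell cannot be told apart. The proximal tubule markers were present in every library and the 12 of them summed to 171173 to 259288 in G3 Tert-/- and 222135 to 303743 in Tert+/+ kidneys at 47 weeks, and to 210643 to 332049 in G3 Tert-/- and 265547 to 460847 in Tert+/+ kidneys at 7 weeks. Kap alone averaged 137119 and 171571 in these genotypes at 47 weeks, and 190473 and 226714 at 7 weeks, so the sums mostly follow Kap. With age, 6 of the 12 lay above 0 and 6 below in each genotype. Their median log2 fold change was -0.03 in G3 Tert-/- and -0.04 in Tert+/+ kidneys.

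The order of the members by mean over all 20 libraries began with Abcc2 at 2868 normalized counts, Abcg2 at 2454 and Abcd3 at 2323. Abcc2 exports glutathione and glucuronide conjugates, Abcg2 exports urate and sulfate conjugates, and Abcd3 carries fatty acids into peroxisomes. Their ranges over libraries overlapped, with 2273 to 3378 for Abcc2, 2077 to 3342 for Abcg2 and 1787 to 3336 for Abcd3, so this order is within their spread. A step separated them from the next members, Abcf1 at 916, Abca3 at 843, Abca13 at 479 and Abca2 at 351. Abcc4 stood next at 250.5, with libraries from 113 to 545. At the low end, Abcg3, Abca6, Abcc3, Abca17 and Abcc8 averaged 5.21, 4.33, 3.82, 1.92 and 1.48 normalized counts, and all of these except Abcg3 were listed at 0 in at least 1 library. These 5 did not reach 10 normalized counts in at least 5 libraries and were not tested, which left 35 members among 14630 genes tested. A member could pass this filter through the group where it was high. Abcb4, with 8 libraries at 10 or more, and Abca4, with 9, passed it most narrowly.

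**Figure D1:**
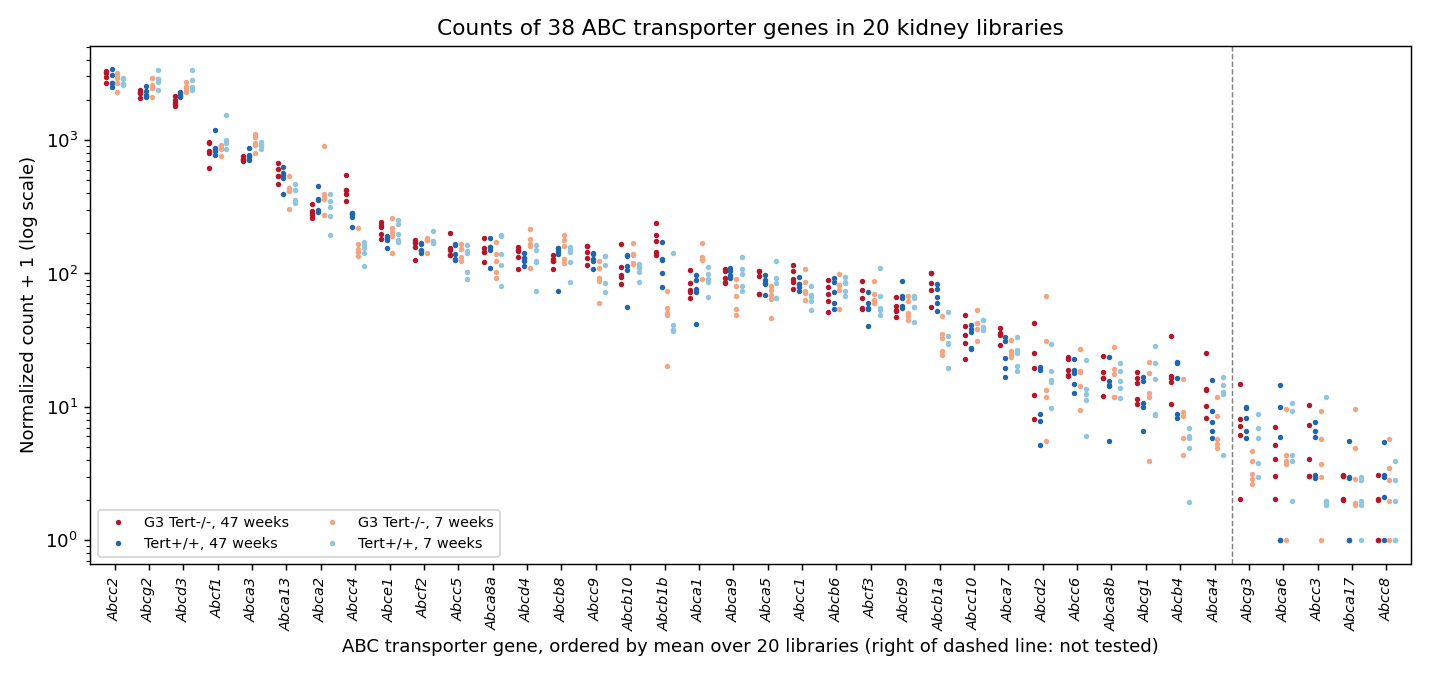
Normalized count plus 1 (log scale) of each of 38 ABC genes in the 20 libraries, ordered by mean, with 1 point per mouse coloured by group and the 5 untested genes to the right of the dashed line. Abcc2, Abcg2 and Abcd3 lie above 1000 in every library, and at Abcc4 and Abcb1a the 47-week libraries of each genotype lie above its 7-week ones.

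Summed over members, subfamily C had 3944 ± 259.8 normalized counts in G3 Tert-/- and 3526 ± 358 in Tert+/+ kidneys at 47 weeks, and 3367 ± 393 in G3 Tert-/- and 3235 ± 210.5 in Tert+/+ kidneys at 7 weeks. Its part of all ABC counts was 31.6%, 28.5%, 26.0% and 24.5% in those groups in the same order. Subfamily D, which is mostly Abcd3, had 2209.9 ± 165 in G3 Tert-/- and 2435 ± 71.6 in Tert+/+ kidneys at 47 weeks, and 2770.0 ± 201 in G3 Tert-/- and 2937 ± 346 in Tert+/+ kidneys at 7 weeks. The mean sum of subfamily C was thus highest and that of subfamily D lowest in 47-week G3 Tert-/- kidneys. All ABC counts together were 12494 ± 437 in G3 Tert-/- and 12328 ± 553 in Tert+/+ kidneys at 47 weeks, and 12906 ± 776 in G3 Tert-/- and 13272 ± 983 in Tert+/+ kidneys at 7 weeks. These sums were not tested.

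In G3 Tert-/- kidneys, 47 weeks against 7 weeks, 5 of the 35 tested members passed an adjusted p of 0.05 in limma (14.3%), beside 2.24% of all genes tested. 3 were higher (8.57%, beside 0.93% of all genes) and 2 were lower (5.71%, beside 1.31%). In Tert+/+ kidneys, 47 weeks against 7 weeks, 2 of 35 passed and both were higher (5.71%, beside 0.403% of all genes higher, 0.246% lower and 0.649% in either direction). At an unadjusted p under 0.05 there were 13 members in G3 Tert-/- (37.1%, beside 14.9% of all genes) and 10 in Tert+/+ kidneys (28.6%, beside 10.6%). Both counts include Abcb4, which was tested mainly through its 47-week libraries and gives them no support. On the recovered reads of 19 libraries, edgeR called 4 members in G3 Tert-/- kidneys (beside 1.31% of all genes) and 2 in Tert+/+ kidneys (beside 0.622%), and DESeq2 called 5 (beside 2.4%) and 3, Abcb4 included (beside 1.4%). Without both libraries that stood apart, limma called 6 (beside 4.58%) and 2 (beside 0.897%). In G3 Tert-/- kidneys the ages were apart, with no overlap of values, for 3 higher members (beside 1.94% of all genes) and 2 lower ones (beside 2.66%). In Tert+/+ kidneys they were apart for 3 higher members, Abcc4, Abcb1a and Abcb4 (beside 1.28%), of which Abcb4 had entered the test mainly through 47-week libraries and gives no support, and 2 lower ones, Abcd3 and Abcf2 (beside 1.25%). The members on the higher side of 0, whether or not they passed, numbered 21 of 35 in G3 Tert-/- kidneys (median log2 fold change 0.10, beside 0.00 over all genes) and 18 of 35 in Tert+/+ kidneys (median 0.00, beside 0.00). In both genotypes 26 of the 35 members lay on the same side of 0, 15 of them higher, Abcb4 included, and 11 lower at 47 weeks. The share over all genes was not counted, so this describes the members and is no result about them.

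Abcc4 (chromosome 14, 118482692 to 118706219, minus strand, GRCm38) encodes MRP4, an apical exporter of organic anions, urate and cyclic nucleotides. Its normalized counts were 418, 545, 347, 419.7 and 392 in the 5 G3 Tert-/- kidneys at 47 weeks, against 219.8, 165, 151, 143 and 135 in those at 7 weeks. Tert+/+ kidneys had 282, 283, 266, 278 and 224 at 47 weeks, against 172, 154, 161, 140.5 and 113 at 7 weeks. In each genotype the lowest kidney at 47 weeks was above the highest at 7 weeks. Means were 424 ± 73.7 at 47 weeks and 163 ± 33.8 at 7 weeks in G3 Tert-/- kidneys, with a log2 fold change of 1.38 (SE 0.14, limma adjusted p = 2.2e-06), and 266 ± 24.9 at 47 weeks and 148 ± 22.9 at 7 weeks in Tert+/+ kidneys, with a log2 fold change of 0.85 (SE 0.14, limma adjusted p = 0.00232). Abcc4 passed with age in both genotypes under each alternative run, the leaving out of any library included.

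Abcb1a and Abcb1b lie next to Abcb4 on chromosome 5 and encode the mouse P-glycoproteins, drug pumps that correspond to a single gene in humans. Abcb1a (chromosome 5, 8660077 to 8748575, plus strand) had 83.4, 99.3, 55.1, 73.5 and 100.03 normalized counts in G3 Tert-/- kidneys at 47 weeks, against 23.6, 34.3, 25.4, 31.6 and 47.2 at 7 weeks, with a log2 fold change of 1.33 (SE 0.23, limma adjusted p = 0.00216). In Tert+/+ kidneys it had 82.9, 75.9, 51.6, 65.3 and 59.0 at 47 weeks, against 50.2, 32.8, 29.3, 28.7 and 18.5 at 7 weeks, with a log2 fold change of 1.09 (SE 0.23, limma adjusted p = 0.0251). The ages did not overlap in either genotype, though in Tert+/+ kidneys the highest 7-week value, 50.2, was close to the lowest 47-week value, 51.6. The call in Tert+/+ kidneys was lost on leaving out 47-week replicate 1 (adjusted p = 0.0841) or 2 (0.0881), or 7-week replicate 3 (0.0519), 4 (0.0726) or 5 (0.0731). It was also lost when only the 2 groups compared entered the limma fit (adjusted p = 0.0987). P-glycoprotein is also made by capillary endothelium, best known in the brain, and the 8 endothelial markers summed to 2529 to 3071 in G3 Tert-/- and 2925 to 3046 in Tert+/+ kidneys at 47 weeks, and to 2708 to 3133 in G3 Tert-/- and 2613 to 3108 in Tert+/+ kidneys at 7 weeks, and their ranges overlapped between ages. The part of endothelial cells in the Abcb1a values was not tested.

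Abcb1b (chromosome 5, 8798147 to 8866315, plus strand) had 192, 175, 136, 144 and 238 normalized counts in G3 Tert-/- kidneys at 47 weeks, against 48.1, 49.9, 53.7, 19.1 and 72.9 at 7 weeks, with a log2 fold change of 1.93 (SE 0.34, limma adjusted p = 0.00216). Tert+/+ kidneys had 77.7, 128, 125, 170.0 and 99.0 at 47 weeks, against 40.3, 36.6, 36.2, 37.0 and 142 at 7 weeks, with a log2 fold change of 1.22 (SE 0.34, limma adjusted p = 0.116), which did not pass. The age groups were apart in G3 Tert-/- kidneys and overlapped in Tert+/+ kidneys through replicate 5 at 7 weeks, whose 142 stood above the 36.2 to 40.3 of the other 4. That library also held 460 normalized counts of Star and 134 of Akr1b7, genes of the adrenal cortex that were the 2 of 7 such markers in the table, and they summed to 594 in it against 15.1 to 43.6 in the other 19. The part of adrenal RNA in the Abcb1b value was not tested. Without this library the log2 fold change of Abcb1b in Tert+/+ kidneys was 1.60 (limma adjusted p = 0.00397), which passed. Of the 50-base windows in the last 500 bases of its transcript, 3.10% were shared with other genes, Abcb1a and Abcb4.

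Abcb4, which in liver moves phosphatidylcholine into bile, was the third gene of this cluster and much lower in level. It had 9.51, 14.3, 33.2, 15.3 and 16.2 normalized counts in G3 Tert-/- kidneys at 47 weeks, against 8.18, 4.89, 15.1, 3.32 and 7.50 at 7 weeks, with a log2 fold change of 1.12 (SE 0.42, limma adjusted p = 0.195). In Tert+/+ kidneys it had 7.25, 20.7, 15.6, 20.3 and 7.79 at 47 weeks, against 5.90, 4.82, 3.91, 0.924 and 5.05 at 7 weeks, with a log2 fold change of 1.58 (SE 0.42, limma adjusted p = 0.0996). The ages were apart in Tert+/+ kidneys and overlapped in G3 Tert-/- kidneys, and neither comparison passed in limma. Of its 8 libraries at 10 normalized counts or more, 7 were from 47 weeks and none from Tert+/+ kidneys at 7 weeks, so it was tested because it was high at 47 weeks, and its age values are a description. DESeq2 on the recovered reads of 19 libraries called it in Tert+/+ kidneys (adjusted p = 0.035). The values are near the floor of 3 reads in several 7-week libraries, and 13.5% of its 3′ windows were shared with other genes.

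**Figure D2:**
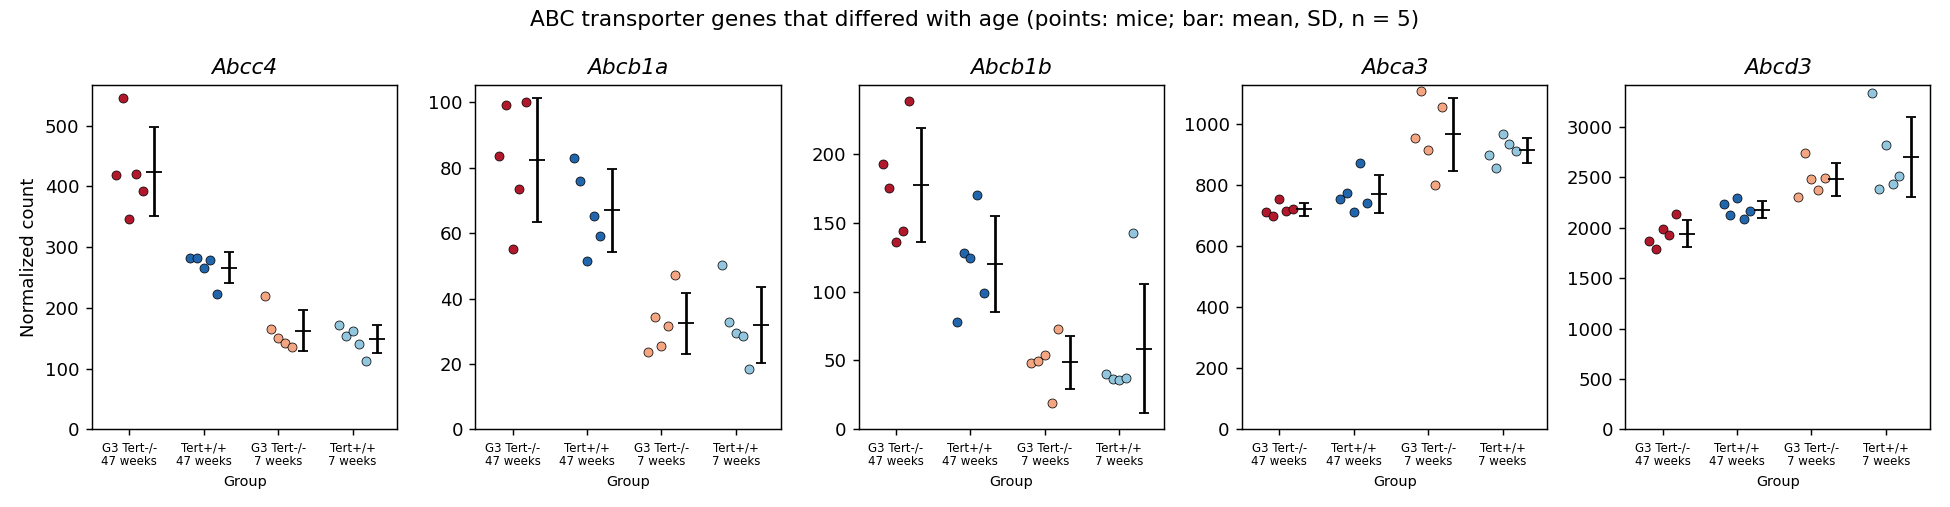
Normalized counts of Abcc4, Abcb1a, Abcb1b, Abca3 and Abcd3 by group, with 1 point per mouse and a bar for the mean and SD of 5 mice. Abcc4 is highest in the 47-week G3 Tert-/- group, at 347 to 545, and one 7-week Tert+/+ kidney stands at 142 for Abcb1b above the rest of its group.

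The other exporters were nearer to one level across ages. Abcc2 had 3071 ± 253 normalized counts in G3 Tert-/- kidneys at 47 weeks and 2824 ± 368 at 7 weeks, and 2849.7 ± 363 in Tert+/+ kidneys at 47 weeks and 2729 ± 163 at 7 weeks. Its log2 fold changes with age were 0.13 (SE 0.11) in G3 Tert-/- and 0.06 (SE 0.11) in Tert+/+ kidneys, and neither passed. Abcg2 had 2237 ± 101 at 47 weeks and 2499 ± 301 at 7 weeks in G3 Tert-/- kidneys, and 2253 ± 175 at 47 weeks and 2827 ± 345 at 7 weeks in Tert+/+ kidneys. Its log2 fold change in Tert+/+ kidneys was -0.32 (SE 0.10, limma adjusted p = 0.174), and in G3 Tert-/- kidneys -0.15 (SE 0.10, limma adjusted p = 0.512). Abcc1, a glutathione conjugate exporter, Abcc5, which exports cyclic nucleotides, and Abcc6, whose loss leads to calcification of elastic tissue, did not pass with age in either genotype, with log2 fold changes of 0.10 to 0.25 in G3 Tert-/- and 0.19 to 0.49 in Tert+/+ kidneys. Abcc9, the sulfonylurea receptor of vascular KATP channels, had 141 ± 19.5 at 47 weeks and 93.5 ± 24.2 at 7 weeks in G3 Tert-/- kidneys, with a log2 fold change of 0.62 (SE 0.19, limma adjusted p = 0.0928). Pericyte and smooth muscle markers, 8 of 8 in the table, summed to 1323 to 1533 at 47 weeks and 1165 to 1828 at 7 weeks in those kidneys.

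The organic solute carriers that work with these pumps in the proximal tubule were taken as a list of 19 genes. In G3 Tert-/- kidneys, 4 passed as lower at 47 weeks (beside 1.31% of all genes) and 1 as higher (beside 0.93%). Slco1a1, an organic anion carrier, had a log2 fold change of -2.55 (limma adjusted p = 3.54e-07), and Slc22a7, another anion carrier, one of -2.41 (limma adjusted p = 8.93e-05). Slc22a6, the classical basolateral anion exchanger, was at -0.69 and Slco1a6 at -0.48, while Slc22a4, a carrier of ergothioneine, was higher by 0.63. Most carriers lay on the opposite side of 0 from Abcc4, with 15 of the 19 below 0, beside 7247 of 14630 genes tested. In Tert+/+ kidneys Slco1a6 alone of the 19 passed, at -0.59 (limma adjusted p = 0.00891), beside 0.649% of all genes. There 13 of 19 lay below 0, beside 7208 of 14630 genes tested. Of 11 tested oxidant and xenobiotic regulators and their targets, Nfe2l2, the transcription factor of the antioxidant response, and its target Nqo1 were higher at 47 weeks in G3 Tert-/- kidneys, with log2 fold changes of 0.52 and 0.82 (limma adjusted p = 0.0145 and 0.0199). Of the 11, 7 lay above 0 and 4 below, with a median log2 fold change of 0.04 beside 0.00 over all genes. Gclm and Srxn1, other targets of this factor, were at 0.01 and -0.04, and Hmox1, haem oxygenase, at -1.16, and none of these 3 passed. In Tert+/+ kidneys Gclc, a subunit of the enzyme that begins glutathione synthesis, was the only one of the 11 to pass and was lower, at -0.62 (limma adjusted p = 0.0267).

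Abca3 (chromosome 17, 24351950 to 24410201, plus strand) encodes the transporter that loads lipid into the lamellar bodies of lung cells. Its normalized counts were 712, 699, 755, 717 and 723 in G3 Tert-/- kidneys at 47 weeks, against 953, 1108, 916, 801 and 1055 at 7 weeks, with a log2 fold change of -0.41 (SE 0.09, limma adjusted p = 0.0133). Tert+/+ kidneys had 754, 774, 711, 874 and 741 at 47 weeks, against 897, 857, 966, 935 and 911 at 7 weeks, with a log2 fold change of -0.25 (SE 0.09, limma adjusted p = 0.29), which did not pass. All 5 G3 Tert-/- kidneys at 47 weeks lay below the 5 at 7 weeks, and in Tert+/+ kidneys 1 value at 47 weeks, 874, exceeded the lowest at 7 weeks, 857. Without G3 Tert-/- 7-week replicate 2, which was the highest at 1108, the call was lost (adjusted p = 0.054).

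The other tested members of subfamily A did not pass in either genotype. Abca1, which hands cholesterol and phospholipid to apolipoprotein A-I, had 105, 83.9, 71.7, 64.3 and 74.8 normalized counts in G3 Tert-/- kidneys at 47 weeks, against 127, 124, 169, 90.5 and 133 at 7 weeks, with a log2 fold change of -0.67 (SE 0.21, limma adjusted p = 0.0934). The groups overlapped. It passed when both libraries that stood apart were left out (adjusted p = 0.0206), and when only the 2 groups compared entered the fit (adjusted p = 0.0469). Abca13, a large and little-studied member, had 564 ± 77.5 at 47 weeks and 421 ± 83.2 at 7 weeks in G3 Tert-/- kidneys, and 530.3 ± 87.5 at 47 weeks and 400.3 ± 52.9 at 7 weeks in Tert+/+ kidneys. On the log2 scale it differed by 0.43 (SE 0.14) and 0.40 (SE 0.14) with age in G3 Tert-/- and Tert+/+ kidneys. Abca2, a lysosomal lipid transporter best known in myelin-forming cells, differed widely among mice of a group, with 372, 393, 362, 899 and 273 normalized counts in G3 Tert-/- kidneys at 7 weeks. Among 9 tested partners of lipid efflux, Lpl, lipoprotein lipase, was lower at 47 weeks in G3 Tert-/- (log2 fold change -1.04, limma adjusted p = 0.00169) and in Tert+/+ kidneys (-1.10, 0.00181), and Pltp, phospholipid transfer protein, was higher in G3 Tert-/- kidneys (0.84, 0.0321). None of 12 sterol and bile acid regulators passed with age in either genotype, though 9 of them lay below 0 in G3 Tert-/- kidneys and 11 in Tert+/+ kidneys. Of 14630 genes tested, 7247 and 7208 lay below 0 in these comparisons. Abcg1, which moves cholesterol to high-density lipoprotein, averaged 13.4 ± 3.33 at 47 weeks and 12.7 ± 6.75 at 7 weeks in G3 Tert-/- kidneys, too few counts for a narrow estimate (SE of the log2 fold change 0.41).

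Abcd3 (chromosome 3, 121758774 to 121815302, minus strand) is the most abundant of the peroxisomal transporters. It had 1863, 1787, 1988, 1928 and 2134 normalized counts in G3 Tert-/- kidneys at 47 weeks, against 2306, 2738, 2481, 2373 and 2492 at 7 weeks, with a log2 fold change of -0.35 (SE 0.09, limma adjusted p = 0.0471). In Tert+/+ kidneys it had 2232, 2121, 2289, 2083 and 2163 at 47 weeks, against 3336, 2387, 2821, 2434 and 2507 at 7 weeks, with a log2 fold change of -0.30 (SE 0.09, limma adjusted p = 0.186). The ages did not overlap in either genotype, and the call in G3 Tert-/- kidneys lay close to the threshold. It was lost on leaving out any 1 of the 10 libraries compared (adjusted p = 0.0537 to 0.141), with scaling by the library total (0.13) and in edgeR (0.0748), and it passed in DESeq2. Abcd2 and the lysosomal cobalamin transporter Abcd4 did not pass. For Abcd4, 16.2% of the 3′ windows were shared with other genes. Of 13 partners of peroxisomal fatty acid oxidation, all 13 lay below 0 in G3 Tert-/- kidneys at 47 weeks, beside 7247 of 14630 genes tested. Crot, carnitine octanoyltransferase, passed (-0.60, limma adjusted p = 0.0243). In Tert+/+ kidneys 10 of the 13 lay below 0, beside 7208 of 14630 genes tested. Ehhadh, a peroxisomal bifunctional enzyme, passed there at -0.88 (limma adjusted p = 0.0249).

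The mitochondrial and lysosomal members of subfamily B and the ribosomal members of subfamilies E and F did not pass with age. Of 14 genes of haem and iron-sulfur metabolism none passed with age in either genotype. Abcf1, which takes part in translation initiation, had its highest values in the 2 libraries that stood apart, 1180.2 in Tert+/+ 47-week replicate 4 and 1548 in Tert+/+ 7-week replicate 1. Abce1, which splits ribosomes for recycling, had 214 ± 26.5 at 47 weeks and 203 ± 43.6 at 7 weeks in G3 Tert-/- kidneys, and 177 ± 14.1 at 47 weeks and 206 ± 34.9 at 7 weeks in Tert+/+ kidneys. Of its 11 partners in translation, Eif5 was lower in G3 Tert-/- kidneys at 47 weeks (-0.34, limma adjusted p = 0.0474). For Abcb6, 96.9% of the 3′ windows were shared with a readthrough transcript, so its counts are uncertain.

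**Figure D3:**
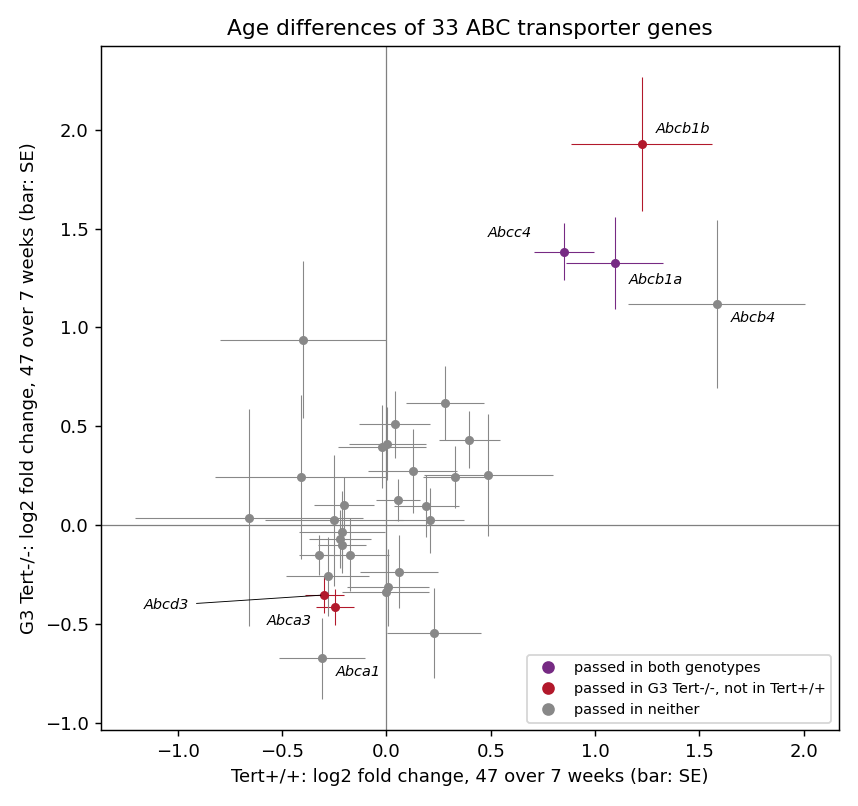
Log2 fold change of 47 over 7 weeks in G3 Tert-/- kidneys (vertical axis) and in Tert+/+ kidneys (horizontal axis) for 33 tested ABC genes, with bars for the SE. Abcc4 and Abcb1a passed in both genotypes, and Abcb1b, Abca3 and Abcd3 passed in G3 Tert-/- kidneys and not in Tert+/+ kidneys. For these 3 the difference of the age effects between genotypes did not pass (limma adjusted p = 0.829, 0.855 and 0.957). Without the 7-week Tert+/+ kidney that was highest for it, Abcb1b passed in Tert+/+ kidneys as well.

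Markers of other cells were also set beside the ages. Distal nephron and collecting duct markers, 12 of 12 in the table, summed to 26282 to 36959 in G3 Tert-/- and 26949.6 to 31817 in Tert+/+ kidneys at 47 weeks, against 20672 to 29312 in G3 Tert-/- and 18795 to 42316 in Tert+/+ kidneys at 7 weeks, and the ages overlapped in both genotypes. Among them Slc12a3, the salt cotransporter of the distal convoluted tubule, was higher at 47 weeks in G3 Tert-/- kidneys (log2 fold change 0.62, limma adjusted p = 0.00251) and in Tert+/+ kidneys (0.57, 0.0109), and Calb1, a calcium-binding protein of the same segment, was lower in G3 Tert-/- kidneys (-0.61, 0.0327). Of the 12 proximal tubule markers, Slc5a2, a glucose cotransporter, passed with age and was lower in G3 Tert-/- kidneys. B cell and plasma cell markers, 7 of 7 in the table, summed to 212 to 7584 in G3 Tert-/- and 1751 to 6486 in Tert+/+ kidneys at 47 weeks, against 146 to 465 in G3 Tert-/- and 51.8 to 272 in Tert+/+ kidneys at 7 weeks. Macrophage markers, 8 of 8, summed to 1100.0 to 1598 in G3 Tert-/- and 1018 to 1499 in Tert+/+ kidneys at 47 weeks, against 899.5 to 1254 in G3 Tert-/- and 664 to 1499 in Tert+/+ kidneys at 7 weeks. No B cell, plasma cell or macrophage marker passed with age in G3 Tert-/- kidneys, and the B cell genes Igkc and Jchain were higher at 47 weeks in Tert+/+ kidneys. Still, 8 of 8 macrophage markers lay above 0 in G3 Tert-/- (median log2 fold change 0.42) and 7 of 8 in Tert+/+ kidneys (0.33). All 4 tested B cell and plasma cell markers lay above 0 in both genotypes, with medians of 1.28 in G3 Tert-/- and 2.57 in Tert+/+ kidneys. The median over all genes was 0.00 in both. The part of these cells in the ABC results, Abcc4 and Abcb1a included, was not tested.

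Between genotypes, no ABC gene passed in limma at 47 weeks, while 0.0957% of all genes tested did. Abcc4 came nearest. It had 418, 545, 347, 419.7 and 392 normalized counts in G3 Tert-/- kidneys, against 282, 283, 266, 278 and 224 in Tert+/+ kidneys, so that every G3 Tert-/- kidney lay above every Tert+/+ kidney. The log2 fold change was 0.66 (SE 0.14, unadjusted p = 0.00013, limma adjusted p = 0.0905), or 1.58-fold. Over the alternatives its adjusted p was 0.0525 to 0.338 in limma and edgeR and 0.00845 in DESeq2 on 19 libraries. DESeq2 thus called 1 member (beside 0.251% of all genes), and edgeR called 0 (beside 0.082%). Abcc4 was the 1 member of 35 whose groups were apart in the higher direction, beside 0.875% of all genes, and 0 members were apart in the lower direction, beside 1.44%. At an unadjusted p under 0.05 there were 2 members (5.71%, beside 6.58% of all genes), Abcc4 and Abca7, a phospholipid transporter of phagocytes, which had 33.8 ± 3.46 in G3 Tert-/- and 23.9 ± 7.25 in Tert+/+ kidneys (log2 fold change 0.53, limma adjusted p = 0.653).

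The members on the higher side of 0 in G3 Tert-/- kidneys at 47 weeks numbered 24 of 35, with a median log2 fold change of 0.10 beside 0.01 over all genes. In subfamily C all 7 tested members lay above 0, with a median of 0.14. Abcb1b had a log2 fold change of 0.58 (SE 0.34) and Abcb1a one of 0.28 (SE 0.23), while Abcd3 was at -0.17 (SE 0.09) and Abcg2 at -0.01 (SE 0.10). None of these passed. Slco1a1 was the 1 solute carrier that passed between genotypes, at -2.10 (limma adjusted p = 5.73e-05), and the other lists named above held no gene that passed at this age.

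At 7 weeks no ABC gene passed in limma and 0% of all genes did. Neither edgeR (0% of all genes) nor DESeq2 (0.0889%) called a member. At an unadjusted p under 0.05 there were 4 members (11.4%, beside 10.7% of all genes): Abca9 at -0.54, Abca1 at 0.51, Abca2 at 0.50 and Abcd4 at 0.41 on the log2 scale, with limma adjusted p of 0.435 to 0.466. Abcb10, a mitochondrial transporter needed for haem synthesis in red cell precursors, was the 1 member whose groups were apart in the higher direction, beside 0.602% of all genes, and 0 were apart in the lower direction, beside 0.8%. It had 137, 138, 167, 119 and 117 normalized counts in G3 Tert-/- kidneys, against 84.6, 109.9, 109.5, 116 and 102 in Tert+/+ kidneys (log2 fold change 0.37, limma adjusted p = 0.496). Abcc4 at this age was at 0.13 (SE 0.14).

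**Figure D4:**
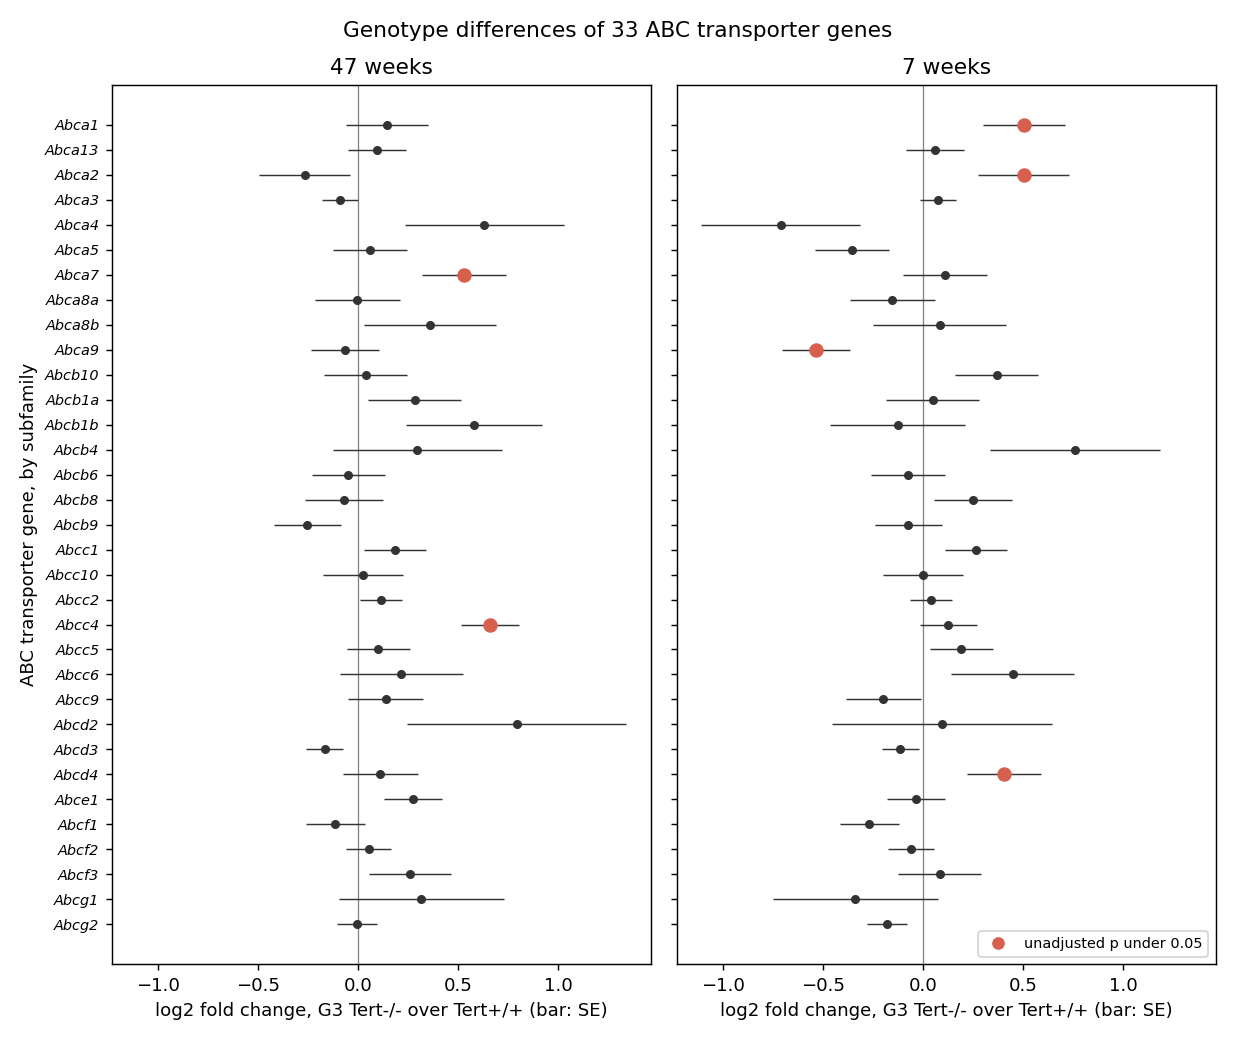
Log2 fold change of G3 Tert-/- over Tert+/+ kidneys at 47 weeks (left) and at 7 weeks (right) for 33 tested ABC genes, with bars for the SE and red points at an unadjusted p under 0.05. None of these genes passed the adjusted threshold in limma, and Abcc4 at 47 weeks, at 0.66, lies farthest from 0 relative to its SE.

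The genotype difference at 47 weeks minus that at 7 weeks was tested for each member, and 0 of 35 passed in limma beside 0.00684% of all genes. The calls of members were also 0 in edgeR (0.00684% of all genes) and DESeq2 (0.0237%). At an unadjusted p under 0.05 there were 3 (8.57%, beside 6.22% of all genes). They were Abcc4 at 0.53 (SE 0.20, limma adjusted p = 0.774), Abca2 at -0.77 (SE 0.32) and Abca4, the retinoid transporter of photoreceptors, at 1.34 (SE 0.56). Without both libraries that stood apart, their unadjusted limma p was 0.0270, 0.0952 and 0.0783. A larger age difference of Abcc4, Abcb1b, Abca3 or Abcd3 in G3 Tert-/- than in Tert+/+ kidneys is therefore not shown by these data.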

How the data were processed

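Libraries were made from 300 ng of total RNA with a stranded QuantSeq kit, which sequences the 3′ ends of poly(A) transcripts, per the labels' protocols, with a mean RNA quality score of 6.6 (range 5.0 to 7.5), not given per library. The submitters' processing notes name TopHat2 2.0.10 with Bowtie 1.0.0, HTSeq 0.6.1, DESeq2 and build GRCm38, without their order. The deposited signal is a normalized count: the values of each library are whole multiples of 1 step (tolerance 1e-06), as when the authors divide reads by 1 size factor. 1 library has a step too near 1 to settle this and was left out of count tests.

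Genes with at least 10 normalized counts in at least 5 libraries were fitted as log2(normalized count + 1) with limma 3.58.1 (R 4.3.3), with an intensity trend and 1 model of 4 group means over 20 libraries. Tests were two-sided, p was adjusted by Benjamini and Hochberg's method over the genes tested, and 0.05 was the threshold. The pseudocount understates changes of low genes. Alternatives used edgeR 4.0.16 and DESeq2 1.42.0 on recovered reads, other scalings, pseudocounts and filters, and left out each library. The fit was tested on simulated data, where recovery was required only for changes larger than those of the ABC genes that passed. No simulated library was made to stand apart, so the test does not bear on smaller changes or such libraries. Over 36 replicate pairs the chi-square statistic was 3.88 to 97.7 per degree of freedom, so no pair agreed within counting error. The labels name no litter, batch or day and do not say outright that each library is another mouse, so p-values measure the spread between these libraries. Library titles are numbered in a separate range for each group, and the labels do not say what the numbers mean. If they follow handling, age and genotype cannot be told apart from it.

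Members and lists were chosen with earlier results of these data known. Named genes are those that passed, the 5 with the smallest p in each comparison, the 2 most abundant of each subfamily and a panel of known transporters, of which Abcb11 was not analysed here; others were chosen after their values were seen. Some genes are not reported singly here. Coordinates are from GENCODE M21 on GRCm38, and promoters from RefSeq on GRCm38.p6.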

Additional observations from a re-analysis of the deposited data

Results flagged for a closer look

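Each group of 5 was checked for a single value whose gap to the nearest other exceeded 0.71 of the group's range, a level that chance passes in about 1 group in 20. Of 108 groups checked, 10 held such a value. Tert+/+ 7-week replicate 1 held 2 of them: Abcf1 was 1548 against 849.8 to 997 in the other mice of its group, and Abcc3 was 10.8 against 0.841 to 0.978. Tert+/+ 47-week replicate 4 held 2, with Abcb8 at 73.2 against 139.9 to 155 and Abcf1 at 1180.2 against 773 to 870.2. G3 Tert-/- 7-week replicate 4 held 2, with Abca2 at 899 against 273 to 393 and Abcf2 at 141 against 176 to 185. Tert+/+ 7-week replicate 5 stood at 142 for Abcb1b against 36.2 to 40.3. G3 Tert-/- 47-week replicate 3 stood at 33.2 for Abcb4 against 9.51 to 16.2. Abcc4 was 224 in Tert+/+ 47-week replicate 5 against 266 to 283, and Abcf2 was 206 in Tert+/+ 7-week replicate 3 against 167 to 175.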

How the results depend on the processing

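No log2 fold change of a named member that passed changed its sign under any alternative run. With age in G3 Tert-/- kidneys, 5 members passed, and leaving out 1 library in turn gave 3 to 4. The lowest count came without 7-week replicate 2, when Abca3 and Abcd3 were lost. With age in Tert+/+ kidneys, 2 passed, leaving out 1 library gave 1 to 2, and 1 passed with only the 2 groups compared in the fit, when Abcb1a was lost. Without 7-week replicate 5 of that genotype, Abcc4 and Abcb1b passed and Abcb1a did not. The genotype comparison at 47 weeks gave 0 members, and 1 with DESeq2 on 19 libraries, Abcc4. At 7 weeks, and for the difference of the genotype effects, every alternative gave 0. edgeR on 19 libraries called 191 genes with age in G3 Tert-/- kidneys, against 327 in limma, and DESeq2 called 204 with age in Tert+/+ kidneys, against 95 in limma. Leaving out both libraries that stood apart gave 664 genes in G3 Tert-/- kidneys. Leaving out 1 library at a time lowered the genes called with age to as few as 192 in G3 Tert-/- kidneys and 56 in Tert+/+ kidneys, and those between genotypes at 47 weeks to 2, against 14. The libraries whose removal lowered these counts by more than 1.5 times were, with age in G3 Tert-/- kidneys, 47-week replicates 2, 4 and 5 and 7-week replicates 1 and 2. With age in Tert+/+ kidneys they were 47-week replicates 1, 2 and 5 and 7-week replicate 4. Between genotypes at 47 weeks they were G3 Tert-/- replicates 1, 2 and 4 and Tert+/+ replicates 1 and 5. At 7 weeks, 2 genes were called between genotypes without Tert+/+ replicate 2. With only the 2 groups compared, 53 genes were called with age in Tert+/+ kidneys and 6 between genotypes at 47 weeks, where 7 were called without a trend and 31 by DESeq2. At 7 weeks DESeq2 called 13 genes, against 0 in limma. Scaling by the library total moved the median of all genes by at most 0.08 (log2). The count tests on all 20 libraries were not run, because whole reads of G3 Tert-/- 47-week replicate 5 were not recovered with certainty. These alternatives on 19 libraries, and the fit without both libraries, were chosen after seeing the data. No paired analysis was possible because the labels give no replicate numbers, and the numbers used here follow the listing order. Depth limits Abcb4, Abca4, Abcg1 and Abcd2, whose values come near the floor of 3 reads.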
